A study of Mus musculus with 6 samples.

Results

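The semaphorin, ephrin, Slit and netrin guidance genes are the ligands and receptors through which a moving cell or growing axon is attracted or repelled. They were taken from the deposited comparison of *Anp32e*-/- with WT mouse embryonic fibroblasts (MEFs) by gene symbol, as every gene whose symbol starts with Sema, Plxn, Epha, Ephb, Efna or Efnb together with the neuropilins, Slits, Robos, netrins, netrin-Gs, *Dcc*, *Neo1* and the *Unc5* genes. The rule used no measured value. It found 72 of the 25043 genes in the table, of which 36 encode ligands, 35 encode receptors and 1 is an antisense RNA gene (*Plxna4os1*).

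Semaphorins act through plexins, and most secreted class 3 semaphorins also need a neuropilin as the binding subunit, while SEMA3E can bind plexin-D1 directly. Ephrins are held at the cell surface, by a lipid anchor in the A class and by a transmembrane domain in the B class, and bind Eph receptor tyrosine kinases on a neighbouring cell. Slits bind Robo receptors, and netrins bind *Dcc*, *Neo1* and the *Unc5* receptors. Fibroblasts and other mesenchymal cells use the same molecules to steer migration, to repel each other on contact and to pattern vessels and tissue borders.

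RNA was sequenced from primary MEFs of WT and *Anp32e*-/- embryos, with 3 libraries per group, made with a stranded total RNA kit from low-passage cells grown in serum. ANP32E is a chaperone that removes the histone variant H2A.Z from chromatin, and the embryos were null for it in every tissue. The only table used gives, for each RefSeq transcript, a mean over all 6 libraries of counts divided by size factors (normalized counts), a log2 fold change of *Anp32e*-/- over WT (log2FC), its standard error (SE) and the p-value of a two-sided DESeq2 Wald test. It gives no values per library, so the depth of each library, the spread among the 3 libraries and any overlap between groups are unknown. The mean and the log2FC together give an approximate mean for each group, which is printed below without an error. The study describes its culture replicates as biological, but neither it nor the labels say whether the 3 cultures of a group came from separate embryos, so the p-values measure the spread between these cultures.

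*Anp32e* itself fell from 3259 normalized counts to 1121 (log2FC −1.54, SE 0.0935, DESeq2 adjusted p = 1.76e-58). The study reports, from its RNA-Seq signal at the locus, that the coding sequence is deleted in these cells. Which part of the transcript the remaining reads cover was not tested. *Xist*, the RNA of the inactive X chromosome, was at least 1704-fold lower in *Anp32e*-/- MEFs, from 5111 normalized counts to under the floor of 3 counts, so the sex of the cells and the genotype cannot be told apart. Of the 10 fibroblast markers examined, 9 had a mean of at least 10 and *Lum* was at the floor in both groups. *Vim* had 330721 normalized counts in WT and 330669 without *Anp32e*, and it made up most of the summed level of the list, 381457 and 415054. Of the 10, 5 were increased, which are *Dcn* (12.7 to 275 normalized counts), *Col3a1* (3173 to 9988), *Col1a2*, *Postn* and *Pdgfrb*, and none was decreased. Neuronal markers summed to 1434 and 718, endothelial markers to 3153 and 2856, neural crest and Schwann cell markers to 322 and 451, and epithelial markers to 328 and 2116. Single genes carried most of these sums. The endothelial sum was mostly *Kdr* (3114 and 2801), while *Pecam1*, *Cdh5* and *Cldn5* had 5.81, 3.83 and 1.65 in WT and 3.13, 3.25 and 2.03 without *Anp32e*. *Tek* had 27.9 and 41.0, and *Tie1* was increased, from under the floor in WT to 5.39. The neuronal sum was mostly *Tubb3* (861 and 614) and *Stmn2* (525 and 52.8). *Mbp* (211 and 282) and *Krt18* (280 and 1931) led the last 2 sums. In these 2 lists *Erbb3* (63.4 and 131), *Krt18* and *Cdh1* (5.98 and 128) were increased and no gene was decreased. Mesothelial markers summed to 9422 and 10009, a sum carried by the keratin *Krt19*, which was decreased (9129 to 5671), while the 5 others were increased. *Snap25*, *Foxd3*, *Emcn* and *Esrp1* had no reads, and among the increased mesothelial genes were *Upk1b* (3.47 to 1835), *Upk3b* (5.04 to 1205) and *Wt1*, which went from under the floor to 600 normalized counts. In bulk RNA, fewer cells of a type and less RNA per cell cannot be told apart, and the part of these other cells in the values below was not tested.

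A member was called increased or decreased where its adjusted p was under 0.05 and its log2FC was beyond 0.5 in either direction. Of the 72 genes, 70 had reads and 67 had an adjusted p. Among these 67, 19 were increased (28.4%), where 8.67% of all 17283 genes tested were, and 7 were decreased (10.4%), where 8.20% of all genes were. Of the other 41, 11 passed the adjusted p with a smaller change and 30 did not pass it. The median log2FC of the members was 0.25 and that of all genes −0.00, and 61.2% of the members had a positive log2FC against 49.9% of all genes. Among the 61 members whose mean was 10 normalized counts or more, 18 were increased (29.5%, against 9.91% of such genes) and 6 decreased (9.84%, against 9.50%). At an absolute log2FC over 1.5, 5 members were increased and 3 decreased, where 2.84% and 2.24% of all genes were. When the Wald test was recomputed to ask for a change beyond 0.5, 10 of the 26 calls remained, with *Epha4*, *Slit3*, *Plxnb1*, *Ephb3*, *Ephb6*, *Sema6b*, *Nrp2* and *Plxnd1* increased and *Epha7* and *Robo2* decreased.

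**Figure D1:**
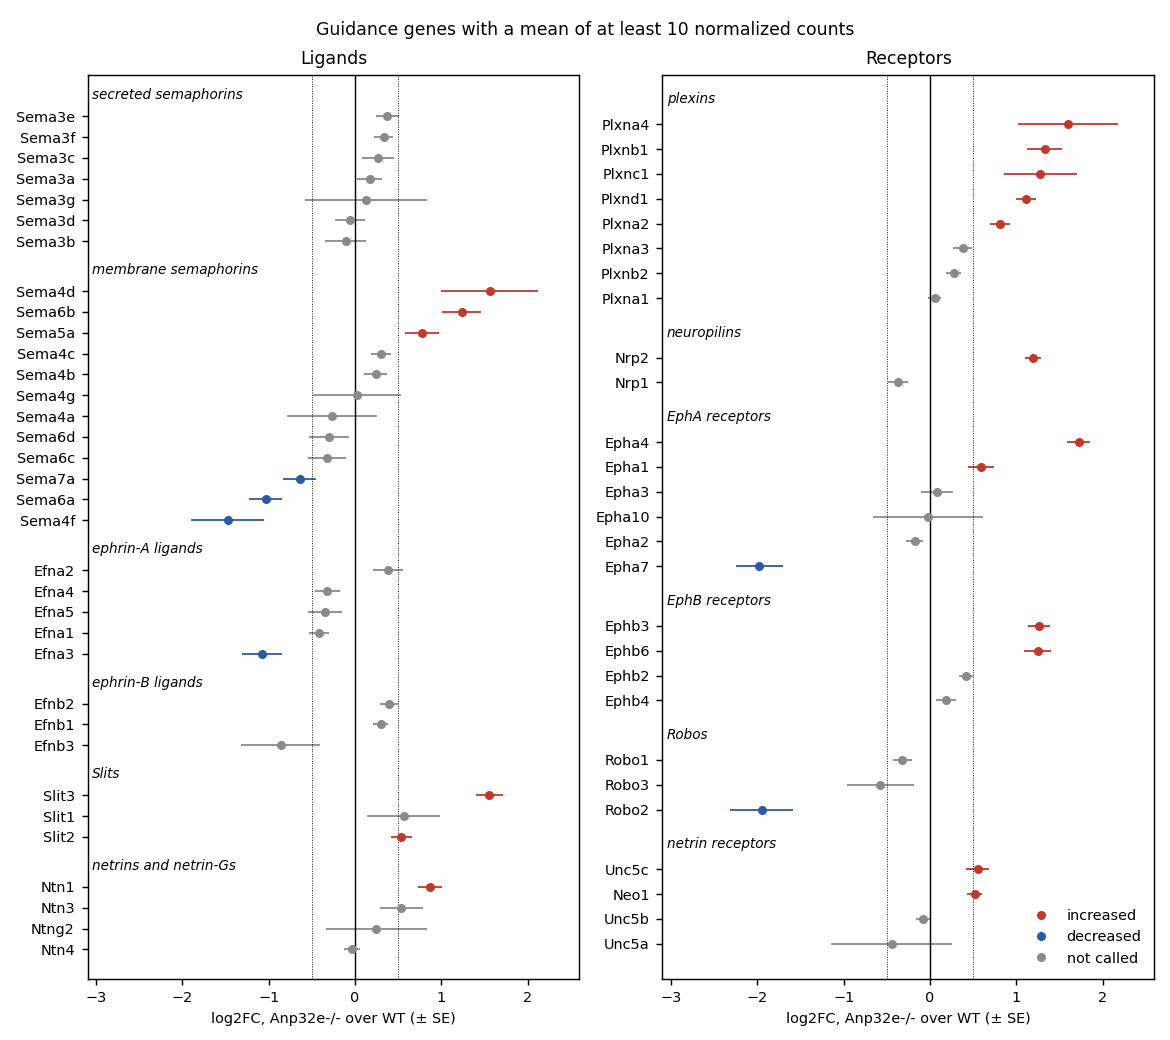
Log2FC of *Anp32e*-/- over WT MEFs for the 61 guidance genes with a mean of at least 10, ligands on the left and receptors on the right, by family. Points are the deposited log2FC, bars are ± SE, dotted lines stand at 0.5 either side of 0, and colour marks the 18 increased and 6 decreased genes.

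Receptors held most of the increases. Of 31 receptor genes with an adjusted p, 12 were increased (38.7%) and 3 decreased (9.68%). Of 36 ligand genes, 7 were increased (19.4%) and 4 decreased (11.1%). The shares over all genes tested were 8.67% and 8.20%. The difference between ligands and receptors was not tested. The plexins had the most increased genes of any family, with 5 of 9, and the secreted semaphorins, ephrins and Robos had none.

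**Figure D2:**
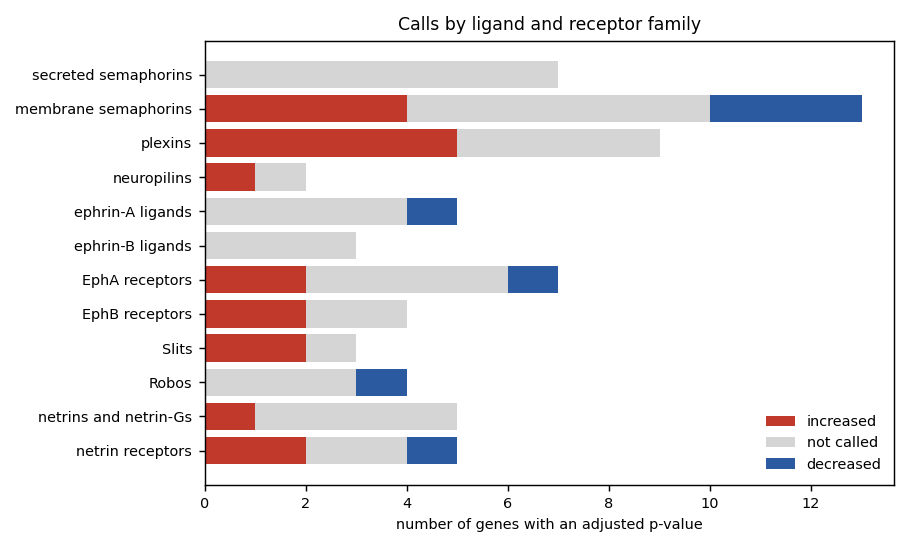
Number of genes with an adjusted p in each ligand and receptor family, with the bar of a family divided into increased, not called and decreased genes. The plexins have 5 increased genes of 9 and the membrane semaphorins 4 increased and 3 decreased of 13, while no secreted semaphorin or ephrin-B gene was called.

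The upstream sequence of 4 strongly moved members is shown, to place these genes in the genome before their values. Of the 22 called members with a promoter window in the RefSeq table for GRCm38.p6, 6 had a window that lay outside the exons and the RefSeq span of the gene, and these are the 4 of them with an absolute log2FC over 1. They were chosen after the values were seen. Each line runs 5′ to 3′ on the strand of the gene, from 250 to 51 bases before the start, and capitals mark matches to GGGCGG or CCGCCC (the GC box) and to CCAAT or ATTGG (the CCAAT box).
*Epha4*, increased, chr1:77515139-77515338, minus strand: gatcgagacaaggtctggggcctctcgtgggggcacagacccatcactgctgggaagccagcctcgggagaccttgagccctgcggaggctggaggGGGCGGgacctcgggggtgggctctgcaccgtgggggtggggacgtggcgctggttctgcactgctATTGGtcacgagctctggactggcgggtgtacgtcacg
*Nrp2*, increased, chr1:62703067-62703266, plus strand: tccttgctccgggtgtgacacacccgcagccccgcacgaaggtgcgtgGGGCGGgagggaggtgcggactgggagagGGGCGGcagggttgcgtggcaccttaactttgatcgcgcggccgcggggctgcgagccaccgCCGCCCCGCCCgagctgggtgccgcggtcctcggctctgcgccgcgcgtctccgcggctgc
*Efna3*, decreased, chr3:89322990-89323189, minus strand: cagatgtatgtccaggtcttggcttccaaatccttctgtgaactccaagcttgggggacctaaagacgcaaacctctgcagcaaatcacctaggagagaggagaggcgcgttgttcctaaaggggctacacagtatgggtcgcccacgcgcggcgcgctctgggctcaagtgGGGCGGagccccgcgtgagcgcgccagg
*Sema4f*, decreased, chr6:82939820-82940019, minus strand: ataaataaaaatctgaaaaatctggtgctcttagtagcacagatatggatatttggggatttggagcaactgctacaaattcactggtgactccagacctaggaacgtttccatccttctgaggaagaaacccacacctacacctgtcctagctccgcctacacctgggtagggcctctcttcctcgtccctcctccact

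The window of *Nrp2* holds 4 GC box matches, 2 of which overlap, those of *Epha4* and *Efna3* hold 1 each, and that of *Sema4f* holds none. The CCAAT box occurs only in the window of *Epha4* among these 4. Windows were found for 61 members, 77 in all. A GC box match on either strand was in 57.1% of the members' windows, in 42.5% of the windows of genes with a mean of at least 10 and in 24.6% of all 32851 windows. It was in 11 of 20 windows of increased, 5 of 9 windows of decreased and 28 of 48 windows of other members. The median GC content was 63.5% for the members' windows, 58.5% for genes with a mean of at least 10 and 51.5% for all windows. The part of GC content in the matches was not tested. The CCAAT box was in 26.0% of the members' windows and in 28.4% of all windows. A match is a description of the letters in the window and not of a factor bound there.

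Among the secreted class 3 semaphorins, many of which repel axons or endothelial cells, no gene was called. *Sema3a*, with a mean of 5270 normalized counts, had 4965 in WT and 5574 in *Anp32e*-/- MEFs (log2FC 0.17, 95% interval −0.11 to 0.45, DESeq2 adjusted p = 0.4). *Sema3e*, a ligand of *Plxnd1*, and *Sema3f*, a ligand of *Nrp2*, passed the adjusted p with changes under 0.5. *Sema3e* had 1742 and 2259 normalized counts (log2FC 0.37, SE 0.134, adjusted p = 0.0191). *Sema3f* had 1952 and 2453 (log2FC 0.33, SE 0.111, adjusted p = 0.0122). The 7 secreted semaphorins had log2FC values from −0.11 to 0.37.

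Of the 13 membrane-bound semaphorins, 4 were increased and 3 decreased, with a median log2FC of 0.02. *Sema5b* had the highest log2FC of all members, 4.31 (SE 1.63, adjusted p = 0.0279), but rested on a mean of 3.54 normalized counts. Its WT mean was under the floor, so it was at least 2.24-fold higher. *Sema4d*, the ligand of plexin-B1, rose from 8.75 to 25.8 normalized counts (log2FC 1.56, SE 0.562, adjusted p = 0.0201).

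*Sema6b* and *Sema5a*, transmembrane semaphorins with higher counts, were increased with smaller errors. *Sema6b* rose from 69.1 to 163 normalized counts (log2FC 1.24, SE 0.228, adjusted p = 6.77e-07). *Sema5a* rose from 117 to 200 normalized counts (log2FC 0.77, SE 0.196, adjusted p = 0.000517).

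The 3 decreased semaphorins were all membrane-bound. *Sema4f* fell from 51.6 to 18.6 normalized counts (log2FC −1.47, SE 0.421, adjusted p = 0.00239). *Sema6a*, a ligand of plexin-A2 and plexin-A4, fell from 408 to 199 (log2FC −1.04, SE 0.187, adjusted p = 4.02e-07). *Sema7a*, which is lipid-anchored and binds plexin-C1 and integrins, fell from 331 to 213 (log2FC −0.64, SE 0.191, adjusted p = 0.00382). *Sema4c* passed the adjusted p with a log2FC of 0.30 (adjusted p = 0.0316), and the 5 others did not pass it. Summed per kilobase over the membrane semaphorins with a known length, the group means were 447 in WT and 442 in *Anp32e*-/- MEFs. *Sema4b*, with 769 and 908 normalized counts, had no matched length and is missing from this sum. The normalized counts of all 13 summed to 2707 and 2786.

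All 9 plexins, the signalling receptors of the semaphorins, had a positive log2FC, with a median of 1.11, and 5 were increased. Relative to the median log2FC of their chromosomes, 7 of the 9 were positive, as *Plxnb2* (−0.05) and *Plxna1* (−0.02) turned negative. *Plxnb3*, counted among the 9, had a mean of 2.77 normalized counts and was under the floor in WT. Its 95% interval of −0.17 to 6.08 included 0. *Plxnd1*, the receptor of SEMA3E best known in vessels, rose from 768 to 1662 normalized counts (log2FC 1.11, SE 0.119, adjusted p = 3.66e-19). *Plxnb1* had 149 and 373 (log2FC 1.33, SE 0.203, adjusted p = 1.16e-09). *Plxna2* had 528 and 926 (log2FC 0.81, SE 0.116, adjusted p = 5.68e-11).

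The other increased plexins, *Plxna4* and *Plxnc1*, were low. *Plxna4* had 8.08 and 24.5 normalized counts (log2FC 1.60, SE 0.578, adjusted p = 0.0205), and *Plxnc1* had 20.4 and 49.6 (log2FC 1.28, SE 0.421, adjusted p = 0.00978). Smaller values came from the plexins with high counts. *Plxnb2*, with a mean of 13284 normalized counts, had a log2FC of 0.27 (SE 0.0835, adjusted p = 0.00482). *Plxna1*, with a mean of 10048, had a log2FC of 0.05 (95% interval −0.09 to 0.20, adjusted p = 0.619). Summed per kilobase, the plexins had 3249 in WT and 3914 in *Anp32e*-/- MEFs.

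The neuropilins, the binding subunits for most class 3 semaphorins, had log2FC values of opposite sign, and 1 was called. *Nrp2* rose from 2205 to 5039 normalized counts, 2.29-fold (log2FC 1.19, SE 0.0923, adjusted p = 4.19e-36). *Nrp1*, with 11833 and 9156, passed the adjusted p with a log2FC of −0.37 (SE 0.119, adjusted p = 0.00831), short of the 0.5 threshold. The *Nrp2* transcripts differed in their means, with 3622 as the highest (log2FC 1.19) and 2563 as the lowest (log2FC 1.28). Subtracting the lowest from the highest left 711 for the WT group and 1408 for the *Anp32e*-/- group. These differences equal 32.2% and 27.9% of the gene's level. Which exons the differences come from was not tested, so they are not assigned to a form of the transcript.

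**Figure D3:**
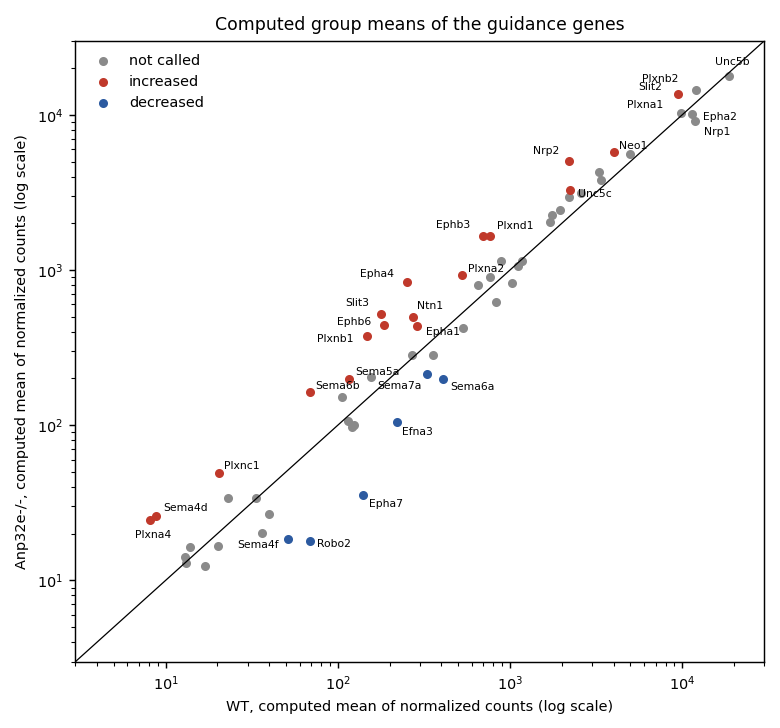
Computed group means, in normalized counts, of the guidance genes above 3 counts in both groups, WT on the x axis and *Anp32e*-/- on the y axis, both log scales, with the line of equal values. Called genes and those with the highest means are named, and *Nrp2*, *Epha4*, *Slit3* and *Ephb3* lie above the line while *Epha7* and *Robo2* lie below it.

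The ephrin-A ligands, which are lipid-anchored, had 4 of 5 log2FC values below 0, a median of −0.35 and 1 called gene. *Efna3* fell from 221 to 104 normalized counts (log2FC −1.08, SE 0.232, adjusted p = 2.65e-05). Its minus-strand gene on chromosome 3 runs from 89313899 to 89322939 and shares 14.1% of its exonic bases with *Gm15998*. The study does not state the strand setting of its counting, so reads of the overlap are uncertain. *Efna1* passed the adjusted p with 825 and 618 normalized counts (log2FC −0.42, SE 0.115, adjusted p = 0.00166).

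The ephrin-B ligands, which signal in both directions, had no called gene. *Efnb2*, the ligand of *Ephb4* at arteries, had 3279 and 4302 normalized counts (log2FC 0.39, SE 0.104, adjusted p = 0.00102), and *Efnb1*, on chromosome X, had 2567 and 3149 (log2FC 0.29, SE 0.0924, adjusted p = 0.00635). *Efnb3* had 36.5 and 20.1 normalized counts and did not pass the adjusted p.

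The Eph receptors held a strong change in each direction, both of the A class. *Epha4* (chromosome 1, 77367182 to 77515107, minus strand), a receptor that binds ephrins of both classes, rose from 253 to 834 normalized counts, 3.30-fold (log2FC 1.72, SE 0.135, adjusted p = 3.69e-35). *Epha7* (chromosome 4, 28813066 to 28967503, plus strand) fell from 141 to 35.7, 3.94-fold (log2FC −1.98, SE 0.270, adjusted p = 5.58e-12). The transcript of *Epha7* with the lower mean gave a log2FC of −1.99.

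*Epha1* was increased from 288 to 433 normalized counts (log2FC 0.59, SE 0.151, adjusted p = 0.000587), and shares 6.01% of its exonic bases with *Zyx*. *Epha2*, the EphA receptor with the highest level per kilobase, had 11380 and 10047 normalized counts (log2FC −0.18, 95% interval −0.37 to 0.01, adjusted p = 0.14) and was not called. *Epha6* had no reads, and *Epha8* was at or under the floor in both groups.

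All 4 EphB receptors with an adjusted p had positive values, and 2 were increased. *Ephb3*, a kinase that positions cells along the crypts of the gut, rose from 692 to 1664 normalized counts (log2FC 1.26, SE 0.128, adjusted p = 2.19e-21). *Ephb6*, whose kinase domain is inactive, rose from 186 to 442 (log2FC 1.25, SE 0.160, adjusted p = 1.56e-13). *Ephb2* passed the adjusted p with a log2FC of 0.42 (SE 0.0813, adjusted p = 2.59e-06), and *Ephb4* did not (log2FC 0.19, adjusted p = 0.213).

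Of the 3 Slits, secreted ligands that repel axons and leukocytes, 2 were increased, while no Robo was. *Slit3* (chromosome 11, 35121456 to 35708507, plus strand) rose from 178 to 523 normalized counts, 2.94-fold (log2FC 1.56, SE 0.153, adjusted p = 2.30e-22). *Slit2*, already among the members with the highest counts, rose from 9415 to 13662 (log2FC 0.54, SE 0.117, adjusted p = 3.64e-05). *Slit1* had 23.2 and 34.2 normalized counts (log2FC 0.56, SE 0.419, adjusted p = 0.326). Summed per kilobase, the Slits had 1248 in WT and 1862 in *Anp32e*-/- MEFs.

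The Robos, the receptors of Slits, had a summed level per kilobase of 152 in WT and 117 in *Anp32e*-/- MEFs. *Robo2* (chromosome 16, 73891976 to 75447443, minus strand) fell from 69.0 to 17.8 normalized counts, 3.87-fold (log2FC −1.95, SE 0.361, adjusted p = 7.78e-07). Its transcripts had log2FC values from −1.95 to −1.90. *Robo1*, the Robo with the highest level per kilobase, passed the adjusted p with 1027 and 823 normalized counts (log2FC −0.32, SE 0.108, adjusted p = 0.0124). *Robo3* had 40.0 and 26.8 and did not pass it, and *Robo4*, the endothelial Robo, was at or under the floor in both groups.

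Among the netrins, secreted proteins related to laminins, *Ntn1* was increased from 275 to 502 normalized counts (log2FC 0.87, SE 0.141, adjusted p = 1.32e-08). *Ntn3* had 105 and 153 (log2FC 0.54, SE 0.247, adjusted p = 0.0829). *Ntn4*, a component of basement membranes, had a log2FC of −0.04 (95% interval −0.22 to 0.14, adjusted p = 0.798). Only *Ntn1* of the 5 netrin and netrin-G genes was called.

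Of the netrin receptors, *Neo1* and *Unc5c* were increased by small amounts at high counts. *Neo1*, which also binds repulsive guidance molecules, rose from 3996 to 5727 normalized counts (log2FC 0.52, SE 0.0865, adjusted p = 2.99e-08). *Unc5c*, a repulsive netrin receptor, rose from 2245 to 3297 (log2FC 0.55, SE 0.133, adjusted p = 0.000215). Both lay close to the 0.5 threshold.

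*Dcc*, the attractive netrin receptor, was decreased on a mean of 2.41 normalized counts. It went from 4.63 in WT to under the floor, so it was at least 1.54-fold lower (log2FC −4.64, SE 1.79, adjusted p = 0.032). *Unc5b*, a receptor of endothelial cells and macrophages, had 18811 and 17849 normalized counts (log2FC −0.08, 95% interval −0.25 to 0.10, adjusted p = 0.556).

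Levels of different genes were compared as the mean per kilobase of transcript. The highest were *Unc5b* with 3123 normalized counts per kilobase, *Nrp1* with 2918, *Epha2* with 2738, *Plxnb2* with 2045 and *Slit2* with 1482. Of these 5, *Slit2* was called. The strongly moved *Epha7* and *Robo2* lay far lower, at 13.1 and 5.05 normalized counts per kilobase. The lengths are those of matched GENCODE transcripts and may be shorter than the full mRNA. At the other end, 7 members were at or under the floor of 3 counts in both groups, which are *Epha6*, *Epha8*, *Ephb1*, *Robo4*, *Ntng1*, *Unc5d* and *Plxna4os1*, and no fold is given for them.

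The choice of transcript did not alter a call. The 72 genes have 144 transcripts in the table, and 25 of the 36 genes with more than 1 have transcripts with different values. None of these 25 had transcripts that differed in call or in sign, and the log2FC of transcripts of 1 gene spanned at most 0.11. Exons of another gene overlap more than 10% of the exonic bases of 4 members, *Plxna1*, *Efna3*, *Efna4* and *Ntng2*.

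Of the 3 members on chromosome X, none was called. *Plxna3* had 884 and 1148 normalized counts (log2FC 0.38, SE 0.108, adjusted p = 0.00236), *Efnb1* is given above, and *Plxnb3* had a mean of 2.77 (log2FC 2.95, SE 1.59, adjusted p = 0.151). All 3 values were positive, in libraries that also differed in *Xist*. The median log2FC of the 473 chromosome X genes with a mean of at least 10 was 0.03. That of the 4 such genes on chromosome Y was 12.14. The study left genes on chromosomes X and Y out of its own differential expression. The part of chromosome X in these values was not tested.

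Several ephrin-A genes lie on chromosome 3 near the targeted gene. *Sema4a*, *Efna1*, *Efna3*, *Efna4* and *Sema6c* lie at −7.49, −6.66, −6.62, −6.60 and −0.771 Mb from *Anp32e*, where minus is towards the lower coordinate, and all 5 had a negative log2FC. Of these, *Efna3* was called. The 254 other genes within 10 Mb with a mean of at least 10 had a median log2FC of 0.03, and 46.1% of them were negative, with 21 increased and 18 decreased. Without the 5 members, 19 members were increased and 6 decreased. The part of this position in the values was not tested.

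**Figure D4:**
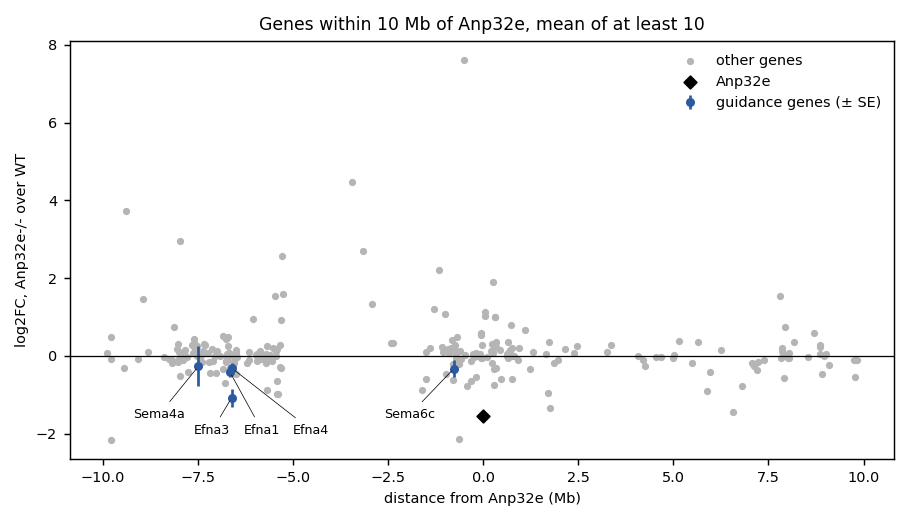
Log2FC of genes with a mean of at least 10 against their distance from *Anp32e* in Mb. The 5 guidance genes, with ± SE, all lie below 0, and *Efna3* at −1.08 is the lowest of them.

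Genes that work with these ligands and receptors were examined as 2 lists. Of 59 intracellular transducers in the table, 8 were increased (13.6%) and 6 decreased (10.2%), with a median log2FC of 0.07. Of all 17283 genes tested, 8.67% were increased and 8.20% decreased. *Chn2*, a Rac GTPase-activating protein, was under the floor in WT and had 90.5 normalized counts in *Anp32e*-/- MEFs, at least 30.2-fold higher. *Dpysl5*, of the collapsin response mediator family, rose from 6.97 to 46.2 (log2FC 2.73, SE 0.538, adjusted p = 4.04e-06). *Ablim1*, an actin-binding protein, rose from 347 to 1811 (log2FC 2.38, SE 0.111, adjusted p = 8.48e-100). Among the 6 decreased transducers, named after their values were seen, *Dpysl3*, also of the collapsin response mediator family, fell from 16354 to 7928 (log2FC −1.04, SE 0.0758, adjusted p = 4.4e-41). *Tiam1*, a Rac exchange factor, fell from 1248 to 643, and *Enah*, *Farp1*, *Ngef* and *Chn1* had log2FC values from −0.68 to −0.57.

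Of the other ligands, co-receptors and modulators, 32 had an adjusted p, with a median log2FC of 0.26. Of these 32, 7 were increased (21.9%, against 8.67% of all genes tested) and 7 decreased (21.9%, against 8.20%). *Rtn4r*, the Nogo receptor, rose from 160 to 797 normalized counts (log2FC 2.32, SE 0.155, adjusted p = 3.66e-48). *Lingo1*, its co-receptor, fell from 38.6 to 12.1 (log2FC −1.67, SE 0.569, adjusted p = 0.0133). *Gpc3*, an X-linked heparan sulphate proteoglycan, rose from 388 to 1230 (log2FC 1.66, SE 0.121, adjusted p = 8.74e-41). The receptor and its co-receptor thus had opposite signs.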

How the data were processed

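RNA-Seq of 3 WT and 3 *Anp32e*-/- MEF cultures was examined from the table that the authors deposited. The authors used RNA-STAR with mm10 for alignment, featureCounts for counting over RefSeq transcripts and DESeq2 at its defaults for the comparison. Its mean column, a signal, was made by the authors from counts divided by size factors. The deposited log2 fold changes and SEs come from the authors' model, the score column is the authors' Wald statistic, and the deposited p-value is two-sided, with Benjamini-Hochberg adjustment. No model could be fitted here, since the table holds only this comparison, although tests on counts per library had been planned if it held them.

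RefSeq's GRCm38 annotation gave a gene for 42203 of 42361 transcripts, and the transcript with the highest mean stood for its gene. The WT mean was computed as 2 times the mean over 1 plus the fold. Group means at or under 3 counts were treated as a floor. Intervals are 1.96 SE either way. Every called member is named, as are the 5 highest per kilobase, those on chromosome X and 3 called genes of each other list. Members and lists were chosen with earlier results of these data known. The computed steps were tested on simulated data. Python 3.11.15, numpy 2.4.6, pandas 2.3.3, scipy 1.17.1 and matplotlib 3.10.9 were used.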

Additional observations from a re-analysis of the deposited data

How the results depend on the processing

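Of the 26 called members, 8 passed an absolute log2FC over 1.5 (5 increased, 3 decreased). A Wald test with an absolute log2FC of 0.5 as the null hypothesis kept 10 (8 increased, 2 decreased), as its construction asks for more than 0.5 beyond error, and 16 were no longer called, among them *Slit2*, *Neo1*, *Unc5c*, *Plxna2*, *Ntn1*, *Efna3* and *Sema6a*. An adjusted p under 0.01 lost *Sema4d*, *Sema5b*, *Plxna4* and *Dcc*. When log2FC values were centred on their chromosome's median, *Sema5a* (0.45, adjusted p = 0.0798) and *Sema7a* (−0.42, adjusted p = 0.0969) were lost and *Efna5*, *Robo1* and *Sema3f* gained, for 27 called. Over the chromosomes that hold members, these medians ranged from −0.35 to 0.34. Adjusting over other sets of transcripts gave 26. Taking another transcript also gave 26, but called members whose transcripts all share 1 value kept that value. Leaving out chromosome X gave 26, a mean of at least 10 gave 24, and leaving out the members within 10 Mb of *Anp32e*, added after seeing the data, gave 25. The outcomes of leaving members out were fixed in advance, since the adjusted p-values of the rest were kept. None of the 26 called members changed sign under these settings. Of the 67 members with an adjusted p, 6 that were not called changed sign on centring, namely *Plxnb2* (0.27 to −0.05), *Plxna1* (0.05 to −0.02), *Sema3b* (−0.11 to 0.11), *Sema4g* (0.02 to −0.32), *Epha3* (0.08 to −0.12) and *Epha10* (−0.03 to 0.01). No paired analysis was possible because the table holds no values per library, and leaving out replicates, edgeR and DESeq2 refits were not run for the same reason. Depth per library is unknown, so the SEs are the only measure of precision, and reach 1.63 for *Sema5b* and 1.79 for *Dcc*, which had few counts.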
